A study of Mus musculus with 8 samples.

Results

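The T-box genes of limb and flank, Tbx2, Tbx3, Tbx4, Tbx5, Tbx15, Tbx18 and Tbx20, are described here by the SMAD4 peaks around them in mouse limb buds. The genes were chosen by name, and all peaks with a centre within 100 kb of the 5′ end of one of these 7 genes were taken as theirs (mouse build mm9, GENCODE vM1 annotation of 22350 protein-coding genes). This rule found 6 peaks of 8258, namely 1 of the 2073 peaks at E9.5 and 5 of the 6185 peaks at E10.5. The study used NMRI embryos homozygous for the Smad4 3xF allele, in which the endogenous SMAD4 protein carries a 3xFLAG epitope tag, and chromatin immunoprecipitation with an anti-FLAG antibody followed by sequencing (ChIP-seq). The 8 samples are 2 SMAD4 ChIP and 2 input DNA samples for each stage, and all of them carry the tagged allele. The E9.5 embryos, dated E9.75 in the protocol, gave forelimb buds with attached trunk, with about 80 embryos pooled per replicate. The E10.5 embryos, about 100 per replicate, gave forelimb and hindlimb buds according to the tissue label, whereas the source label names the forelimb bud throughout. Stage and tissue cannot be told apart in any comparison below, and hindlimb cells entered at E10.5.

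SMAD4 is the common partner of the receptor-activated SMADs and enters the nucleus with them after BMP or TGFβ signalling. T-box proteins are transcription factors that share a DNA-binding domain named after brachyury (T). Tbx5 is required to start the forelimb bud, and Tbx4 functions in the outgrowth of the hindlimb bud. Tbx2 and Tbx3 encode repressors that are expressed along the anterior and posterior limb margins and in the flank, and both are known as genes that respond to BMP signals. Tbx15 and Tbx18 are expressed in mesenchyme and paraxial mesoderm, and Tbx20 is foremost a gene of the developing heart.

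Each stage is represented by a single list of peaks in which the 2 replicates were already combined. No value therefore has a replicate error, the sequencing depth is unknown, and no difference between stages or genes was tested. The values below describe these lists, and the lack of a peak does not show that SMAD4 was not bound. The score in the lists has no named unit, so it is used for the order of peaks within a list (rank 1 being the best score). No expression values were used here, so the labelled tissue was not checked against marker genes.

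The 6 peaks lie on chromosomes 5, 9 and 11. The 300 bp around the peak centre are shown because the lists give no summits and the centre is the only point each peak defines. For the peak inside a Tbx3 exon, 30 bp around its overlapping SMAD boxes are shown. All sequences are the plus strand of mm9, 5′ to 3′. Capitals mark matches on either strand to any of 7 sequences. These are the SMAD box CAGAC, printed as its reverse complement where it lies on the minus strand, and its form with a further C, written as CAGACC. The palindrome of the SMAD box is GTCTAGAC. The GC-rich sequences bound by BMP-activated SMADs were searched as GGCGCC, a palindrome, and in the variant form of GGAGCC. The core of the site bound by T-box proteins was searched as GGTGTG and, with a further A, as the longer GGTGTGA. The longer form of each pair contains the shorter one, and these matches overlap.
Tbx20 E9.5 peak: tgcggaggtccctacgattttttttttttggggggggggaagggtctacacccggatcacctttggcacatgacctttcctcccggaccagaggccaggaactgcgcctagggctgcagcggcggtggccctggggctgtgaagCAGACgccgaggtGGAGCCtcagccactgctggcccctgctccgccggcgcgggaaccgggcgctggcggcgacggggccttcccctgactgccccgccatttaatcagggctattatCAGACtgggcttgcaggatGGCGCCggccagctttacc
Tbx2 distal E10.5 peak: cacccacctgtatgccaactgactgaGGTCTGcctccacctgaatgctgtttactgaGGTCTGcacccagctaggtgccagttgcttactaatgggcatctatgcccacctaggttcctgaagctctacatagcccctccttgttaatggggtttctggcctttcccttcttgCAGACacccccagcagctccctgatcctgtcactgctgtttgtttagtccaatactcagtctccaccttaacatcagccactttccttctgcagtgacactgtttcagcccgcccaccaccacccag
Tbx2 proximal E10.5 peak: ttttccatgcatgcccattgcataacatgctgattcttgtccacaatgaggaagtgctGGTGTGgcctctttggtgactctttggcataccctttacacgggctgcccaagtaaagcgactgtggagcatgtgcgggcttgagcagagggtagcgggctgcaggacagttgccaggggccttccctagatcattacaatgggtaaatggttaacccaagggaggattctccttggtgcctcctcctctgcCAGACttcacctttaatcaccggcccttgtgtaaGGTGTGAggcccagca
Tbx3 distal E10.5 peak: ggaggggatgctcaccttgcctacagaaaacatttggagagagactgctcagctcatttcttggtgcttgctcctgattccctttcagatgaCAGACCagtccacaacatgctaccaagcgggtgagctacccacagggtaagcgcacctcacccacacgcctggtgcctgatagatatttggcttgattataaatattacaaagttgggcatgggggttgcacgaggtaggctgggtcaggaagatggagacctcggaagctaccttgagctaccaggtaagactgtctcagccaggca
Tbx3 promoter E10.5 peak: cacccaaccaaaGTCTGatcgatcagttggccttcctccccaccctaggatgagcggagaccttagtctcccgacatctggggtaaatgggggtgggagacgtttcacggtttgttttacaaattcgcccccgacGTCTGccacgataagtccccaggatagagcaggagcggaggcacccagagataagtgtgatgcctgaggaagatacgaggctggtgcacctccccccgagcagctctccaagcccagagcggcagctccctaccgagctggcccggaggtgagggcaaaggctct
Tbx3 exonic E10.5 peak: actgtcggtgCAGACAGACgccaccgcgca
These windows are chr9:24585517-24585816 (Tbx20), chr11:85619166-85619465 and chr11:85626129-85626428 (Tbx2), chr5:120077510-120077809 and chr5:120119642-120119941 (Tbx3), and chr5:120130753-120130782 for the exonic stretch.

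At E9.5, 1 of the 7 genes (Tbx20) had a peak within 100 kb, where 20.5% of all protein-coding genes did. At E10.5, 3 of 7 (Tbx2, Tbx3 and Tbx4) had a peak, against 52.9% of all genes. The E10.5 list is the longer one, and when it was reduced to its 2073 best-scored peaks, the length of the E9.5 list, 0 of the 7 genes had a peak, where 28.0% of all genes did. None of the 7 had a peak at both stages (14.7% of all genes), and 3 (Tbx5, Tbx15 and Tbx18) had a peak at neither (41.2%). With only 7 genes, of which Tbx2 and Tbx4 share their peaks, these counts stand close to the shares of all genes. None of the 6 peaks shared 1 bp or more with the other list, whereas 18.7% of the whole E9.5 list and 6.26% of the whole E10.5 list did so. The nearest peak of the other stage was 369 kb from the Tbx20 peak and 175 to 241 kb from the 5 E10.5 peaks.

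**Figure D1:**
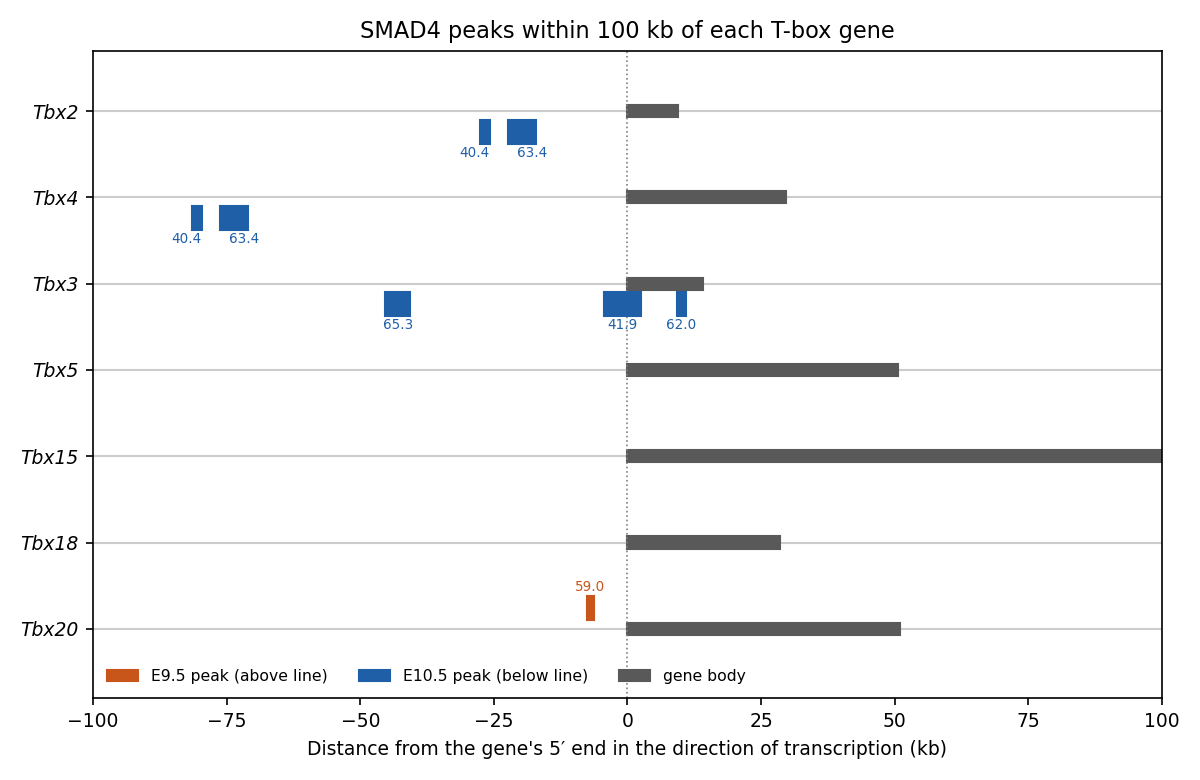
Peaks within 100 kb of each gene, drawn to scale along the distance from the gene's 5′ end (kb, negative values upstream), with E9.5 peaks above and E10.5 peaks below each line, the gene body in grey (Tbx15 runs past the edge) and the score beside each peak. The only E9.5 peak lies 6.92 kb upstream of Tbx20, the E10.5 peaks lie at Tbx2, Tbx4 and Tbx3, and the lines of Tbx5, Tbx15 and Tbx18 are empty.

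The T-box repressor gene Tbx3 (chr5:120120678-120134733, plus strand) had 3 E10.5 peaks, the most of the 7 genes, and as many or fewer are found at 94.6% of all genes. Together they covered 13.2 kb or 6.60% of the 200 kb around its 5′ end. The promoter peak (chr5:120116292-120123293) spans the 5′ end of Tbx3, with its centre 0.886 kb upstream. At 7002 bp it was wider than 94.2% of the E10.5 list, but its score of 41.9 put it at rank 5723, or 92.5% of the way down the list. The widest member peak, which lies at a T-box promoter, was thus among the weakest-scored peaks of its stage.

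The distal Tbx3 peak (chr5:120075337-120079983, 4647 bp) has its centre 43.0 kb upstream and had a score of 65.3 at rank 2301 (37.2% from the top), the best rank of the 5 E10.5 peaks. It lies within 2 transcribed loci that are annotated without a protein, Gm2301 on the minus strand and Gm16063 on the plus strand. The 5′ end of a Gm2301 transcript is 0.0580 kb from its centre, so the nearest annotated start of this peak is that of a non-coding RNA. The Gm2301 locus (chr5:120061272-120121374) starts inside Tbx3, close to the 5′ end of that gene. It runs across this 5′ end on the opposite strand and also contains the centre of the promoter peak.

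The exonic Tbx3 peak (chr5:120130020-120131561, 1542 bp) lies within the gene, with its centre 10.1 kb downstream of the 5′ end in a coding exon. It had a score of 62.0 at rank 2765.5 (44.7% from the top) and was narrower than most of the list, with 19.8% of E10.5 peaks being narrower still. The 5′ end of a further annotated Tbx3 transcript lies 0.0300 kb from its centre. It is separated from the promoter peak by 6.73 kb.

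Tbx2, the other repressor gene of this subfamily, and the hindlimb gene Tbx4 lie side by side on chromosome 11, with 5′ ends 53.9 kb apart and both on the plus strand (Tbx2 at chr11:85646053-85655450, Tbx4 at chr11:85699924-85729599). Both E10.5 peaks of Tbx2 are also those of Tbx4, so the pair counts as 2 genes with a peak but as 2 distinct peaks. The proximal peak (chr11:85623654-85628904, 5251 bp) is 19.8 kb upstream of Tbx2 and 73.6 kb upstream of Tbx4, with a score of 63.4 at rank 2565 (41.5% from the top). The distal peak (chr11:85618413-85620219, 1807 bp) is 26.7 kb upstream of Tbx2 and 80.6 kb upstream of Tbx4. It had a score of 40.4 at rank 5825.5 (94.2% from the top), the lowest of the 5 E10.5 peaks. The 2 peaks are 3.44 kb apart and cover 7.06 kb.

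Both Tbx2 and Tbx4 peaks lie in introns of Bcas3 (chr11:85166669-85639560), a large neighbouring gene on the same strand. They also lie within the lincRNA locus 2610027K06Rik (chr11:85605163-85645725), which is transcribed in the opposite direction from a start next to that of Tbx2. The nearest transcript start to the distal peak was 1.66 kb away and to the proximal peak 8.62 kb away, and both belong to this lincRNA. Of protein-coding genes, Tbx2 has the nearest 5′ end to both peaks, and the assignment to Tbx4 depends on the distance limit. The distal peak, 80.6 kb from Tbx4, is the farthest inside the 100 kb limit. The closest ones outside it are 154 kb from Tbx5 at E10.5 and 221 kb from Tbx3 at E9.5.

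Tbx20 (chr9:24527648-24578746, minus strand) had the only E9.5 peak (chr9:24585083-24586252, 1170 bp). This peak is intergenic, its centre is 6.92 kb upstream, and no other gene or transcript start is nearer. Its score of 59.0 put it at rank 874 of 2073 (42.2% from the top), and 45.7% of E9.5 peaks were narrower. Of all genes, 97.0% had their nearest E9.5 peak farther away. No other E9.5 peak lay within 665 kb of it, whereas the nearest E10.5 peak of Tbx20 was 377 kb upstream, at the 5′ end of Herpud2. That E10.5 peak had a score of 140 at rank 143. Since the E9.5 tissue included trunk, whether the Tbx20 peak comes from limb or trunk cells cannot be told apart.

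In position, 7 of the 8 combinations of a gene and a peak were upstream of the 5′ end, and the exonic peak of Tbx3 was the exception. These combinations count the peaks shared by Tbx2 and Tbx4 once for each gene, and the promoter peak of Tbx3 spans the 5′ end. No share over all genes stands beside this count, and it is not read as a trait of these genes. By score, none of the 6 peaks was among the best 691 of the E9.5 or the best 2061 of the E10.5 list. Of the 6, 4 had a score of 50 or more and 2 were below 50, where 20.0% of the E9.5 list and 13.1% of the E10.5 list lie. The median score of the E10.5 peaks was 62.0 against 59.8 in the whole E10.5 list, and the E9.5 value of 59.0 is a single peak in a list with a median of 56.3. The median width was 4647 bp against 2552 bp at E10.5, with individual widths from 1542 to 7002 bp. The peaks of the T-box genes therefore sat in the middle and lower range of the scores, at widths on both sides of the median.

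**Figure D2:**
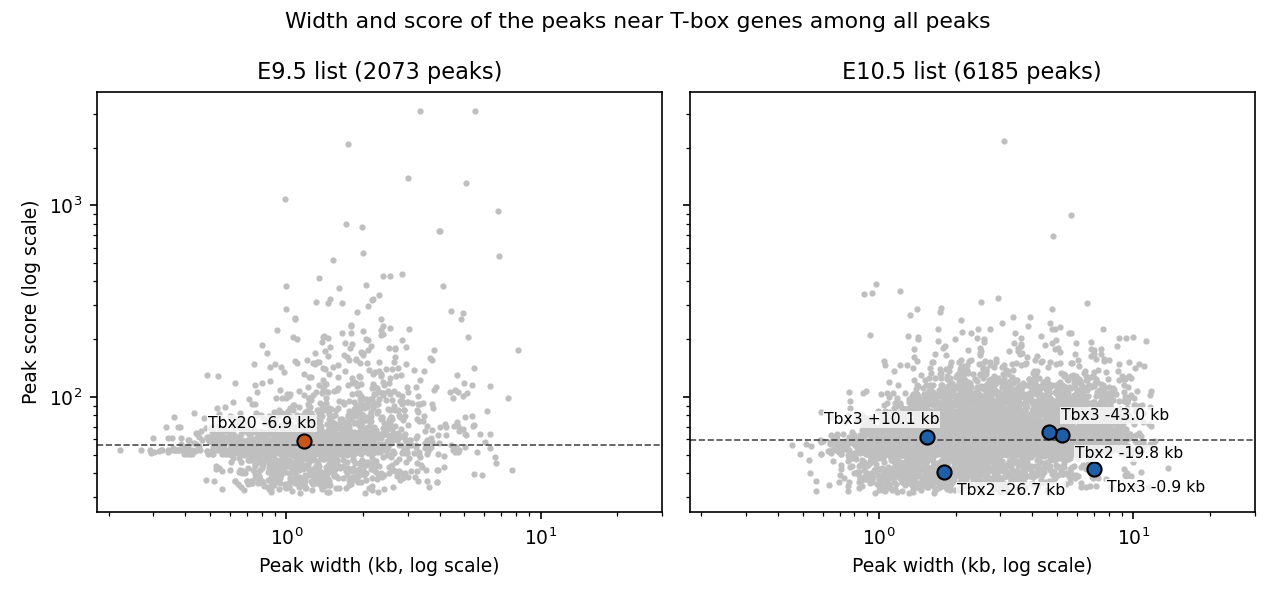
Width (kb) and score of every peak in each list (grey points, both axes logarithmic), with the peaks of the T-box genes in colour and named by gene and distance from its 5′ end, and the list's median score as a dashed line. The Tbx20 peak and 3 E10.5 peaks lie just above the medians of 56.3 and 59.8, and the distal Tbx2 peak (40.4) and the promoter peak of Tbx3 (41.9) lie below.

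All 6 peaks contained at least 1 SMAD box CAGAC in the 300 bp around their centre, where 60.6% of all E9.5 peaks, 53.2% of all E10.5 peaks and 49.6% of the 300 bp promoter sequences in RefSeq (GRCm38.p6) contained one. The distal Tbx2 peak had 3 boxes and 2 of these were CAGACC, a sequence held by 19.7% of E10.5 windows. The distal Tbx3 peak had 1 box, which was also a CAGACC. In the exonic Tbx3 peak the 2 boxes overlap by a single base, as the capitals show. The promoter peak of Tbx3 had 2 boxes, both on the minus strand, and the proximal Tbx2 peak had 1. Over the whole peaks, the density of CAGAC was 5.19 per kb in the exonic and 1.94 per kb in the distal Tbx3 peak, which were the extremes of the 5, against a median of 2.74 per kb in the E10.5 list. The Tbx20 peak had 4.27 per kb against a median of 2.87 at E9.5.

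The other sequences occurred in fewer of the 300 bp windows. GGCGCC was found once in the Tbx20 window and once in the window of the exonic Tbx3 peak (12.6% and 13.1% of all windows at E9.5 and E10.5). GGAGCC was found once, in the Tbx20 window (32.3% of E9.5 windows). Of the 6 windows, that of the proximal Tbx2 peak alone held the T-box core GGTGTG, with 2 matches, and 1 of them was GGTGTGA (21.5% and 4.54% of E10.5 windows). Over the whole peaks, GGAGCC occurred in all 6 and GGTGTG in 5 of the 6, with 6 matches in the proximal Tbx2 peak and 5 in the promoter peak of Tbx3. The exonic Tbx3 peak had none of the latter. Over their whole length, 88.4% and 83.0% of all E10.5 peaks contained these sequences, and 67.8% and 63.4% of all E9.5 peaks. GTCTAGAC was not found in any of the 6 windows. In the whole peaks it occurred once, in the distal Tbx3 peak, where 3.62% of E10.5 peaks contain it. The Tbx20 window had a GC content of 65.7% with 21 CpG dinucleotides, above the E9.5 medians of 53.0% and 5. Against E10.5 medians of 55.0% and 7, the window of the exonic Tbx3 peak had 69.7% and 28 and that of the promoter peak 59.3% and 15. The other 3 E10.5 windows were below both medians, with 53.3% and 1 in the distal Tbx2, 53.3% and 5 in the proximal Tbx2 and 52.0% and 5 in the distal Tbx3 peak. A match is a description of the letters and no evidence of a bound site.

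Genes without a peak within 100 kb were followed outwards to the nearest one. For the forelimb gene Tbx5 (chr5:120284672-120335227), which lies 164 kb downstream of Tbx3, the nearest E10.5 peak was the exonic Tbx3 peak at 154 kb. All 3 E10.5 peaks within 250 kb of Tbx5 are those of Tbx3, and the next ones were 354 kb downstream in Rbm19 and 436 kb upstream. Its nearest E9.5 peak, 385 kb upstream and 221 kb upstream of Tbx3, had a score of 57.8 at rank 965, and it is the sole E9.5 peak within 1 Mb of either gene.

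Tbx15 (chr3:99044304-99158182) had its nearest peaks 1139 kb upstream at E9.5, in Notch2, and 812 kb upstream at E10.5, in Zfp697. Of all genes, 19.1% and 11.0% had a nearest peak farther away in these lists. Tbx18 (chr9:87597635-87626095) had its nearest peaks 550 kb upstream at E9.5 and 977 kb downstream at E10.5, the latter in Prss35, and 36.6% and 8.94% of genes were farther from a peak. Over all genes the median of this distance was 350 kb in the E9.5 list, and it was 87.8 kb in the E10.5 list. The quartiles were 130 and 848 kb in the E9.5 list and 22.9 and 297 kb in the E10.5 list. Tbx15 thus lay beyond the upper quartile in both lists, and Tbx18 in the E10.5 list but not in the E9.5 list.

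**Figure D3:**
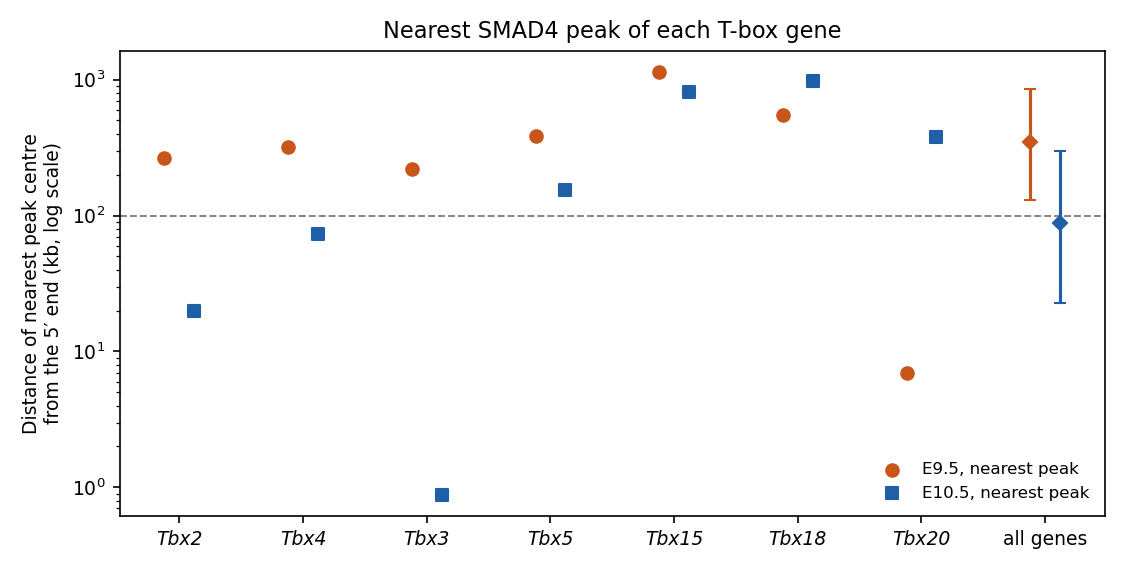
Distance from the 5′ end of each gene to the centre of its nearest peak at E9.5 (circles) and E10.5 (squares), on a logarithmic axis in kb, with the median and quartiles over all protein-coding genes at the right and the 100 kb limit as a dashed line. Tbx3 has the shortest E10.5 distance (0.886 kb) and Tbx20 the shortest E9.5 distance (6.92 kb), and Tbx15 and Tbx18 lie above 500 kb at both stages.

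Within 1 Mb the Tbx2 and Tbx4 region had 8 E9.5 peaks around Tbx2 and 7 around Tbx4, against a median of 2 over all genes, and 99.7% and 99.0% of genes had as many or fewer. All of these E9.5 peaks were nearer to the 5′ end of another protein-coding gene than to that of Tbx2 or Tbx4. Inside Bcas3 were 3 of these, 263, 378 and 440 kb upstream of Tbx2, with scores of 56.1, 76.8 and 61.0. The rest lay 560 to 962 kb from Tbx2. Among them, the peaks at Ggnbp2 and Rps6kb1 had centres 0.341 and 0.197 kb from the 5′ ends of these genes. The E10.5 peaks within Bcas3 lay near its 3′ end, which adjoins Tbx2. Both stages thus had peaks in this gene, at different places. At E10.5 Tbx2 had 7 peaks and Tbx4 had 6 within 1 Mb, against a median of 7.

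Tbx3 and Tbx5 had 1 E9.5 peak each and 15 and 14 E10.5 peaks within 1 Mb. As many or fewer were found at 43.5% of all genes at E9.5 and at 84.5% and 81.3% at E10.5, and more peaks at E10.5 than at E9.5 is also the order of the medians. The E10.5 peaks of this region were spread from 841 kb upstream to 994 kb downstream of Tbx3 and included 2 at or within Lhx5, a LIM homeobox gene, with scores of 61.7 and 91.9. Tbx15 had 0 and 3, Tbx18 had 2 and 1, and Tbx20 had 2 and 3 peaks within 1 Mb at E9.5 and E10.5. At this distance the windows of neighbours coincide, and 13 distinct E9.5 and 29 distinct E10.5 peaks lay around the 7 genes.

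**Figure D4:**
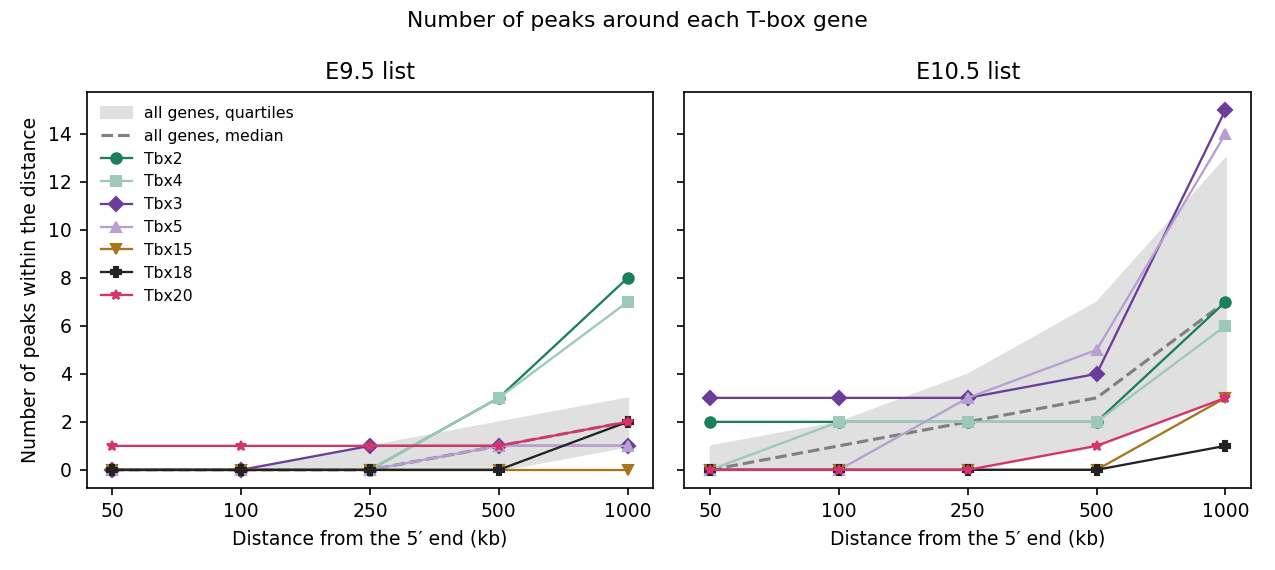
Number of peaks within 50, 100, 250, 500 and 1000 kb of each gene's 5′ end (evenly spaced steps, not to scale) in the E9.5 and E10.5 lists, with the median (dashed) and quartiles (grey) over all protein-coding genes. At 1000 kb Tbx2 and Tbx4 reach 8 and 7 peaks at E9.5, and Tbx3 and Tbx5 reach 15 and 14 at E10.5.

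The 7 genes had 9 to 22 other protein-coding 5′ ends within 1 Mb, where the median gene has 29 and the quartiles are 15 and 49. Of the 6918 genes with such a number of neighbours, 21.0% had a peak within 100 kb in the E9.5 list and 45.6% in the E10.5 list, against 20.5% and 52.9% over all genes. The 200 kb around each gene contained no unsequenced bases and had a GC content between 40.8% (Tbx18) and 49.0% (Tbx2).

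The 10 other T-box genes examined (T, Eomes, Tbr1, Tbx1, Tbx6, Tbx10, Tbx19, Tbx21, Tbx22 and Mga) had no E9.5 peak within 100 kb, where 20.5% of all genes had one. At E10.5, 6 of the 10 had one, near the 52.9% of all genes. Tbx1, a gene of the pharyngeal region, and Tbx10 had 2 each, as Tbx2 and Tbx4 did. Some of these peaks lay at the 5′ end of another gene. The only peak of T was 0.321 kb from that of Prr18, and the only peak of Tbx6 was 0.00100 kb from that of Ypel3. The nearest peak of Tbx10 was 1.03 kb from the 5′ end of Acy3. Lacking an E9.5 peak at this distance is the usual state, as it holds for 79.5% of all genes.

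Among 8 genes that act with, upstream or downstream of T-box factors in limb and heart, 3 had a peak in the E9.5 list (Pitx1, Isl1 and Gata4) and 5 in the E10.5 list (Pitx1, Hand2, Nkx2-5, Gata4 and Smarcd3), against 20.5% and 52.9% of all genes. Pitx1, the hindlimb factor upstream of Tbx4, had an E9.5 peak 12.0 kb upstream with a score of 93.7 at rank 238, which is higher in its list than the Tbx20 peak at rank 874. Its E10.5 peaks were 11.1 kb downstream and 31.1 kb upstream. Isl1, which marks hindlimb and cardiac progenitors, had a peak at E9.5 alone (84.6 at rank 298). Fgf10, the limb bud signal downstream of Tbx5, and Sall4 had no peak within 100 kb in either list. This is also the case for Tbx5 and for 41.2% of all genes. Gata4, a cardiac factor that works together with Tbx5 and Tbx20, had 2 peaks at each stage. The only E10.5 peak of Nkx2-5 was 75.5 kb upstream of this gene and 0.00900 kb from the 5′ end of Kifc5b. Pitx1 and Gata4 were the 2 of 8 with a peak at both stages, against 14.7% of all genes. Their peaks were not shared between the lists, which is also the usual state of a peak (18.7% and 6.26% of the lists are shared).

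The pattern of Tbx3, with 0 E9.5 and 3 E10.5 peaks within 100 kb, was found at 1068 other protein-coding genes over 200 kb from the 7 genes, and at 4.78% of all genes. Measured by the difference in log10 rank of the best E10.5 peak, the closest were Iqgap3 and Ttc24 (both 0.000472, with the same peak at rank 2303.5) and Lypd3 (0.000661, rank 2297.5). The likeness covers 2 lists only and was defined after the values of Tbx3 were known.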

How the data were processed

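SMAD4 ChIP-seq and input samples of 2 stages were sequenced by the authors. Per the labels, reads were aligned to mm9 with Bowtie 1.1.0 and peaks were called with MACS 1.4. According to the methods of the study, peaks were called per replicate against input and the 2 replicates of a stage were combined with MSPC. The deposited lists give position and a score per peak, assigned by the authors, without a named unit. The methods state that a combined peak took the best MACS p-value of its replicates. The values would fit such a p-value written as its negative log10 times 10, but the lists do not name the scale, and they were treated as a score. Depth is not given in the sources used here. The inputs have no values of their own.

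The lists were joined to GENCODE vM1 on the same build (0 peaks ran past a chromosome end) with Python 3.11.15, NumPy 2.4.6 and pandas 2.3.3, and plotted with Matplotlib 3.10.9. Coordinates are 1-based. Distances run from the peak centre to the gene's 5′ end, and tied scores share a mean rank. Annotation at a peak is that of its centre. A peak was shared if it overlapped the other list by 1 bp or more. In 300 bp around the centre, 7 sequences were searched on both strands. The distance, overlap and motif functions were tested on simulated data. Promoter sequences in RefSeq (GRCm38.p6) matched 3 of the 7 genes and served only for the share of windows with a sequence.

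The genes, the lists of other T-box and partner genes and the alternatives were chosen with earlier results of these data known. Genes named are the 7 with every peak, those nearest to such a peak, both lists and 3 genes with a pattern like Tbx3. That likeness rule asked for a peak at both stages, which Tbx3 lacks, and was changed after its values were seen. Genes hosting or next to a more distant peak or a peak of either list, such as Lhx5, Bcas3, Kifc5b and the non-coding loci, were also named after their values were seen. No test was run, as each stage is 1 list. The alternatives were the distance limit, the reference point, the peak edge, score minimums of 50 and 100, an E10.5 list of the length of the E9.5 list, the definition of shared and the width searched.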

Additional observations from a re-analysis of the deposited data

How the results depend on the processing

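No paired analysis was possible because the replicates of a stage were combined before deposit, and for the same reason no replicate could be left out. At 50 kb Tbx4 lost both peaks (0), which left 2 genes with an E10.5 peak, and the distinct peaks stayed at 1 and 5 (11.4% and 37.8% of all genes had a peak). At 250 kb, 2 genes had an E9.5 peak (2 distinct peaks, median score 58.4), 1 gene, Tbx3, had peaks at both stages, and Tbx5 gained the 3 E10.5 peaks of Tbx3 (40.6%, 72.0% and, for both stages, 35.9% of all genes). At 1 Mb, 6 genes had an E9.5 peak (13 distinct), all 7 an E10.5 peak (29 distinct) and 6 had both (78.4%, 91.3% and 76.5% of all genes). Of the 13 E9.5 peaks, 2 were shared (18.7% of the list). With a score of 50 or more, 3 distinct E10.5 peaks were left, all 3 genes kept a peak, and Tbx2 and Tbx4 had 1 each (50.1% of all genes had an E10.5 peak and 17.6% an E9.5 peak). With a score of 100 or more, 0 peaks and 0 genes were left at both stages, where 3.04% and 8.77% of all genes had one. With the E10.5 list reduced to the length of the E9.5 list, the E10.5 counts were 0 peaks and 0 genes, where 28.0% of all genes had a peak. The reference point, the peak edge, the definitions of a shared peak and the width searched for CAGAC moved none of the counts over the 7 genes. The definitions of a shared peak could hardly do so, with the Tbx20 peak 369 kb from the nearest E10.5 peak. Nor could the width, as all 6 windows already held CAGAC. Over whole peaks, 94.0% of the E9.5 list and 98.2% of the E10.5 list held it. The 0 in the reduced E10.5 list follows from the ranks, as the best of the peaks at Tbx2, Tbx3 and Tbx4 has rank 2301. It adds nothing to those ranks, and the depth behind the lists is unknown. With 6 peaks and no replicate values, no spread can be set beside any count.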

Other observations

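Tbx21, a T-box gene of lymphocytes, had 6 E10.5 peaks within 100 kb, the most of any T-box gene examined, with its nearest peak centre 0.646 kb downstream of its 5′ end. Their scores ran from 54.5 to 97.4 and their ranks from 580 to 4107.5. Its surroundings hold 53 other protein-coding 5′ ends within 1 Mb, against 9 to 22 around the limb and flank genes. Its nearest E9.5 peak was 122 kb away.

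At 673 kb upstream of Tbx20 the lists share a pair of peaks (chr9:25251134-25252033 at E9.5 and chr9:25251070-25252043 at E10.5), 900 and 974 bp wide. They ranked 102 with a score of 148 at E9.5 and 4 with a score of 387 at E10.5, which is far higher in either list than the peaks within 100 kb of the 7 genes. The nearest protein-coding 5′ end is that of Eepd1, 37.5 kb away. The other shared pair within 1 Mb of the 7 genes lies at Ggnbp2, 962 kb upstream of Tbx2, with scores of 50.8 and 62.5.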
